A study of Mus musculus with 7 samples.

Results

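Adipogenic stromal cells that express the leptin receptor are a small population of bone marrow, and 10 genes that mark them or carry their function are described here in whole marrow with and without Aim2. The genes were chosen by name as known genes of these cells (Adipoq, Lepr, Cxcl12, Kitl, Lpl, Foxc1, Ebf3, Pdgfrb, Igfbp5 and Grem1), with no threshold on a measured value. All 10 were found among the 35498 genes of the files, and all 10 were among the 14238 genes with enough reads to be tested. Mice were females of 5 to 6 months, with 3 marrow libraries labelled as Aim2 knock-outs (null mice, here KO) and 4 labelled WT, and no treatment is named for either group. The strain, the deleted part of Aim2 and the way marrow was taken out of the bone are not given in the sources used here, and the labels name no sorting of cells. Whole marrow was therefore read out, and a change in the number of stromal cells cannot be told apart from a change of RNA per cell in any value below. Each of the 10 genes had reads in each library, at least 127, but bulk values do not show which cells held them.

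These stromal cells wrap around the sinusoids of marrow and are also known as CXCL12-abundant reticular cells. They are the main source in adult marrow of the chemokine CXCL12, which retains blood stem cells and B cell precursors, and an important source of the growth factor KITL, which keeps stem cells alive. They transcribe adiponectin and lipoprotein lipase without being filled with fat, they can give rise to marrow adipocytes, and the transcription factors FOXC1 and EBF3 hold them in this state. The study's title concerns fat formation in marrow after deletion of Aim2, a sensor of DNA in the cytosol.

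The 7 libraries held 20300468 to 21099972 estimated reads each. Aim2 had 47 to 157 reads in the KO libraries and 533 to 601 in the WT libraries, with no overlap, with a KO over WT log2 fold change of -2.76 ± 0.38 (SE, 95% interval -3.63 to -1.89, adjusted p = 0.028). That call needed nearly all libraries: the adjusted p was 0.0538 to 0.097 without KO library 2 or 3 or any 1 WT library, and it stayed below the threshold without KO library 1. Haemoglobin genes took 11.3 to 13.7% of KO reads and 13.8 to 19.9% of WT reads, and WT library 1 was highest. Immunoglobulin genes took 1.11 to 1.72% of KO reads and 0.314 to 0.903% of WT reads, without overlap. Levels are given as CPM (reads relative to the library total scaled with TMM factors) to compare libraries, and as TPM (corrected for transcript length) to compare genes or transcripts. Each adjusted p of a gene below comes from the quasi-likelihood test of edgeR, adjusted by Benjamini-Hochberg over the 14238 tested genes, with a threshold of 0.05. Whether the libraries of a group are separate mice is not in the labels, and p-values then reflect only how these libraries vary, which may be technical.

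Transcript forms of 3 of the genes make different proteins, and the files count reads per transcript, so the stretches that tell the forms apart are shown first. Sequences are from GENCODE M21 transcripts (build GRCm38), plus strand, 5′ to 3′. Cxcl12 codes for a short alpha form (89 codons), a beta form (93 codons) and a gamma form (119 codons) with a basic tail that binds heparan sulfate. All share the 30 bases in lower case, and the capitals are what each adds up to and including its stop codon (chr6:117173580-117173582, chr6:117178584-117178598 and chr6:117176087-117176179).
Cxcl12 alpha form: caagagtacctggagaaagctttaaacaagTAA
Cxcl12 beta form: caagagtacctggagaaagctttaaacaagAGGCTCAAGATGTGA
Cxcl12 gamma form: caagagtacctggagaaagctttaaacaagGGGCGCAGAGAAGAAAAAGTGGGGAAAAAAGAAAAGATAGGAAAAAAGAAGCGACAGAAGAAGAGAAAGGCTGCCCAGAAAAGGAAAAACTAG

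Kitl is made as a form with an extra exon that holds a cleavage site, from which soluble KITL is shed (273 codons), and as a form without it that stays mostly on the membrane (245 codons). The capitals are that exon of 84 bases (chr10:100080857-100080940), between 12 shared bases on each side.
Kitl form with the exon: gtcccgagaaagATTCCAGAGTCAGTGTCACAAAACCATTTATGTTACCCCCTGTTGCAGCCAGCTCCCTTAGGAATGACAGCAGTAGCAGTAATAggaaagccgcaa

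Lepr is made as a short form (894 codons) and as a long form with the intracellular tail that signals through STAT3 (1162 codons). The forms share their coding sequence through the lower-case bases. The short form then adds the 18 bases in capitals with its stop codon (chr4:101811348-101811365), and the long form adds 822 coding bases, of which the first 90 are in capitals (chr4:101814448-101814537).
Lepr short form: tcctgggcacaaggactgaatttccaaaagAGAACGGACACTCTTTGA
Lepr long form: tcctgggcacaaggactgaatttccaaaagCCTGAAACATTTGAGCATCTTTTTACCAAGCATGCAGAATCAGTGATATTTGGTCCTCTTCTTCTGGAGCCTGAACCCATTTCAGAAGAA

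None of the 10 stromal genes passed the test between KO and WT marrow: 0 rose, 0 fell and 10 did not pass. Of all tested genes 0.646% passed, 0.478% higher and 0.169% lower in KO. Their log2 fold changes lay between -0.51 (Grem1) and 0.26 (Ebf3), 6 above 0 and 4 below, with a median of 0.082 against -0.011 for all tested genes. Without adjustment p was under 0.05 for 1 of the 10 (Grem1), where 11.5% of all tested genes were under it. With DESeq2 and with limma voom 0 of the 10 passed too, where 2.85% and 2.14% of genes did. In 1 of the 10 (Ebf3) the KO and WT libraries did not overlap in CPM, with KO above. Of all tested genes 12.9% did not overlap, 6.95% with KO above and 5.94% with KO below. Both counts of 1 in 10 lie near those shares, so they are no result about these genes.

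**Figure D1:**
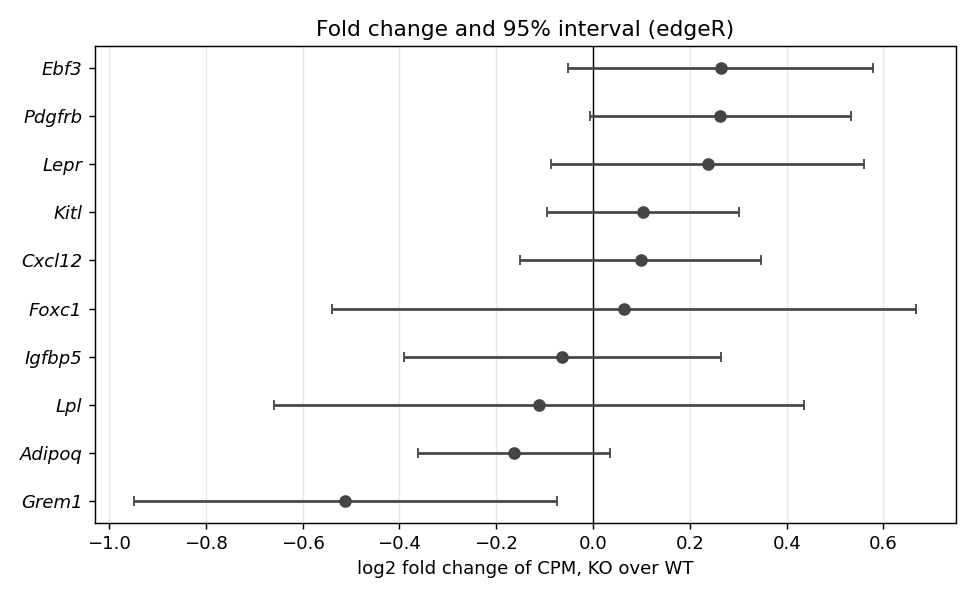
Log2 fold change of CPM (x axis, KO over WT) of each of the 10 genes, as points with 95% intervals from edgeR over 3 KO and 4 WT libraries. The interval of Grem1 (-0.95 to -0.075) is the only one that leaves out 0, before adjustment over all genes, and those of Foxc1 and Lpl are the widest.

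A p above the threshold does not show that levels were equal. The intervals give, for each gene and without adjustment over all genes, the changes that these data leave possible. They are not the limit of what the test could detect. For Cxcl12 and Kitl the 95% intervals of the KO level ran from 0.901 to 1.27 times and from 0.936 to 1.23 times the WT level. For Adipoq the interval was 0.778 to 1.02 times, and for Foxc1, the gene with the fewest reads, 0.688 to 1.59 times. Across the 10 genes the lowest bound was 0.518 times (Grem1) and the highest 1.59 times (Foxc1).

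Compared per length, the 10 genes spanned a range from Cxcl12 at 501 ± 85 TPM (SD, n = 7, both groups) to Foxc1 at 1.97 ± 0.525 TPM. Cxcl12 alone held 69.3 to 75.6% of the summed TPM of the 10. After it came Igfbp5 (63.8 TPM), Adipoq (44.9), Lpl (38.1), Lepr (15.9), Kitl (8.05), Pdgfrb (5.91), Grem1 (4.23) and Ebf3 (4.16). Most neighbours kept their order in all 7 libraries. Adipoq and Lpl, Pdgfrb and Grem1, and Grem1 and Ebf3 did not, with the first of each pair higher in 5 of 7 libraries. In those 3 pairs the levels did not differ beyond the spread of the libraries.

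**Figure D2:**
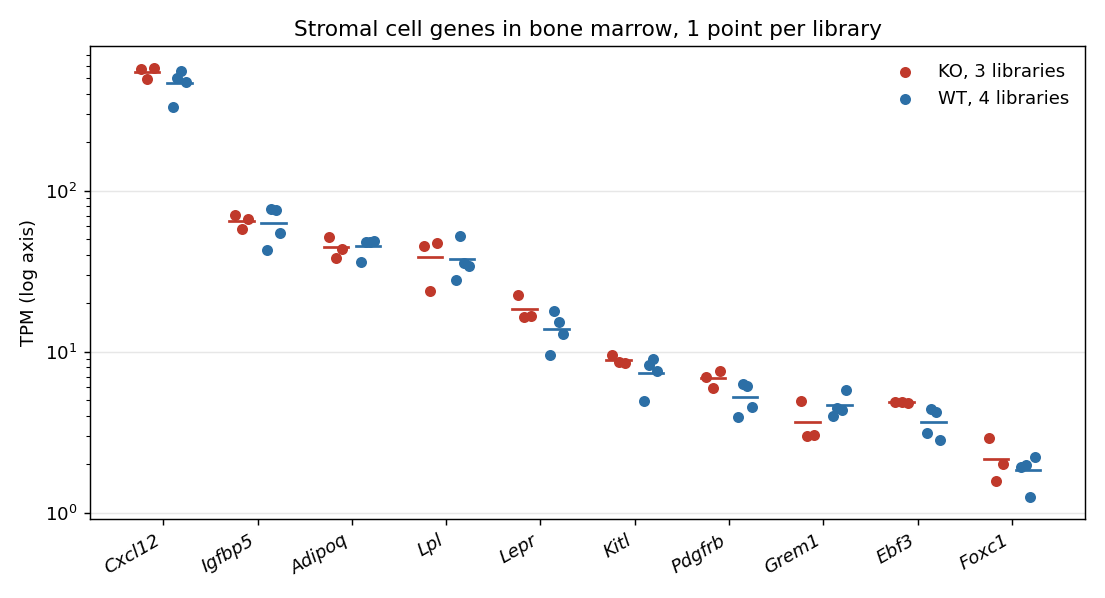
TPM (y axis, log scale) of the 10 genes (x axis, ordered by mean TPM), with 1 point per library, 3 KO in red and 4 WT in blue, and a bar at each group's mean. Cxcl12 stands far above the others at 332 to 581 TPM, and in CPM, which is not plotted here, only the KO and WT libraries of Ebf3 do not overlap.

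The niche factors that act on blood cells, Cxcl12 and Kitl, varied least between libraries among the 10 in CPM. Their coefficients of variation over all 7 libraries were 8.84% and 7.91%, against 9.30% for Adipoq and up to 25.9% for Foxc1. The ranking depends on the unit: in TPM Adipoq varied least (13.2%), before Cxcl12 (17.0%) and Kitl (18.9%). Cxcl12 (ENSMUSG00000061353.11; chromosome 6, 117168535 to 117181367, plus strand) was at 1310.2, 1254 and 1310.3 CPM in KO libraries 1 to 3 and 1015, 1237, 1347 and 1225 CPM in WT libraries 1 to 4. All KO libraries lay within the WT range, whose lowest value was WT library 1. The means were 1292 ± 32.4 CPM across KO libraries (SD, n = 3) and 1206 ± 139 CPM across WT libraries (SD, n = 4), with a KO over WT log2 fold change of 0.10 ± 0.11 (SE, 95% interval -0.15 to 0.35, adjusted p = 0.789). The log2 fold change was 0.026 without WT library 1 and 0.16 without WT library 3.

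The mix of Cxcl12 forms was much the same in each library. The alpha form took 33.5, 32.3 and 37.4% in KO libraries 1 to 3 and 37, 34.6, 33.3 and 32.9% in WT libraries 1 to 4 of the reads on coding Cxcl12 transcripts. The beta form took 60.03 to 64.3% and the gamma form 2.58 to 3.87%. KO minus WT, the mean shares differed by -0.061 percentage points (adjusted p = 0.943) for alpha, 0.25 percentage points (adjusted p = 0.943) for beta and -0.19 percentage points (adjusted p = 0.943) for gamma, by exact two-sided permutation tests over samples, adjusted over the 5 shares tested. With 3 against 4 libraries the smallest p such a test can give is 0.0286 before adjustment. Over the 5 shares, which include those of Kitl and Lepr below, the threshold could be passed only with several shares at that limit. A shift of a single share could therefore not pass. The order of the forms depends on the unit. By reads, beta exceeded alpha in 7 of 7 libraries, while per length (TPM) alpha held 47.6 to 52.4% and beta 46.6 to 51.1%, with alpha the higher in 3 of 7. The annotated beta transcript is 3132 bases long and the alpha transcript 1878.

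**Figure D3:**
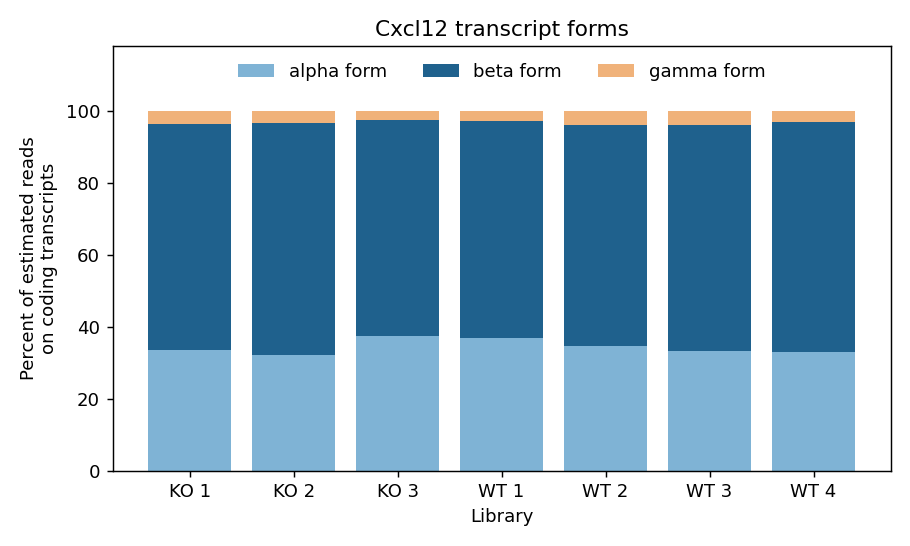
Percent of estimated reads on coding Cxcl12 transcripts (y axis) that went to the alpha, beta and gamma forms, stacked, in each of the 7 libraries (x axis). Beta took 60.0 to 64.3%, alpha 32.3 to 37.4% and gamma 2.58 to 3.87%, with KO and WT libraries intermixed.

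Kitl, the ligand of the stem cell receptor KIT (ENSMUSG00000019966.18; chromosome 10, 100015630 to 100100416, plus strand), was at 44.3, 42.8 and 42.1 CPM in KO libraries 1 to 3 and 34.6, 41.8, 43.8 and 40.2 CPM in WT libraries 1 to 4. WT library 1 was again lowest and the other libraries lay close together. The means were 43.1 ± 1.1 CPM across KO libraries (SD, n = 3) and 40.1 ± 3.95 CPM across WT libraries (SD, n = 4), with a KO over WT log2 fold change of 0.10 ± 0.087 (SE, 95% interval -0.10 to 0.30, adjusted p = 0.715), which was 0.039 without WT library 1. Nearly all reads were assigned to the annotated transcript with the extra exon printed above: it held 99 to 99.9% of reads on coding Kitl transcripts, and 95.4 to 99.4% per length. The form without that exon had 1.09 to 8.65 estimated reads per library. The KO minus WT difference of the share with the exon was 0.11 percentage points (adjusted p = 0.943) by the exact permutation test. The annotated transcript with the exon is 5648 bases long and the other 1260, so most of the longer one lies outside the exon that tells the forms apart. The longer one also reaches further at its 3′ end, to position 100100416 against 100096398. Reads from that end are assigned to it whether or not their molecule held the exon. The share is therefore no measure of exon use, and the split rests on Salmon's model.

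Receptor genes, Lepr and Pdgfrb, had means above WT in KO that did not pass. Lepr, the leptin receptor that names these cells (ENSMUSG00000057722.17; chromosome 4, 101717404 to 101815352, plus strand), was at 97.5, 76.3 and 71 CPM in KO libraries 1 to 3 and 61.5, 80.01, 74.8 and 60.6 CPM in WT libraries 1 to 4. KO library 1 was highest and the other KO libraries lay within the WT range. The means were 81.6 ± 14.1 CPM across KO libraries (SD, n = 3) and 69.2 ± 9.67 CPM across WT libraries (SD, n = 4), with a KO over WT log2 fold change of 0.24 ± 0.14 (SE, 95% interval -0.086 to 0.56, adjusted p = 0.582). Without KO library 1 the log2 fold change was 0.089. Of the reads on coding Lepr transcripts, 98.8 to 99.7% went to the short form and 0.11 to 0.538% to the long signalling form, which had 1.25 to 8.72 estimated reads per library. The long-form share differed by -0.046 percentage points (adjusted p = 0.943) between KO and WT in the exact permutation test. At so few reads a change in the long form was not detectable.

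Pdgfrb, a receptor of platelet-derived growth factors on mesenchymal cells and pericytes (ENSMUSG00000024620.11; chromosome 18, 61045150 to 61085061, plus strand), was at 37.9, 35.9 and 41.4 CPM in KO libraries 1 to 3 and 28.5, 36.9, 34.9 and 27.7 CPM in WT libraries 1 to 4. All KO libraries lay above 3 of the WT libraries, but KO library 2 lay below WT library 2. The means were 38.4 ± 2.82 CPM across KO libraries (SD, n = 3) and 32 ± 4.63 CPM across WT libraries (SD, n = 4), with a KO over WT log2 fold change of 0.26 ± 0.12 (SE, 95% interval -0.0065 to 0.53, adjusted p = 0.448). Markers of smooth muscle and pericytes, which also carry Pdgfrb, summed to 53 to 255 CPM in KO and 96.8 to 145 CPM in WT, and 0 of 8 passed the test (3 with an unadjusted p under 0.05, all higher, and 1 with DESeq2 and 1 with voom, both Mcam). Of these Acta2 was at 6.15 to 10 CPM in KO and 4.75 to 8.52 CPM in WT and Myh11 at 1.83 to 2.49 CPM in KO and 1.02 to 1.7 CPM in WT. Acta2 and Myh11 thus made up a small part of most sums. By library the sum was 53, 84.5 and 255 CPM in KO libraries 1 to 3. In WT libraries 1 to 4 it was 119, 145, 96.8 and 144 CPM. The sum of skeletal muscle markers was likewise lowest in KO library 1 (58 CPM) and highest in KO library 3 (5995 CPM). The sum is therefore not a level of pericytes alone. The part of muscle RNA in it, and the part of smooth muscle and pericytes in the Pdgfrb values, was not tested.

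The adipocyte-type genes of these cells, Adipoq and Lpl, had means below WT in KO that did not pass. Adipoq, which encodes the hormone adiponectin (ENSMUSG00000022878.5; chromosome 16, 23146536 to 23158028, plus strand), was at 54.1, 43.4 and 46 CPM in KO libraries 1 to 3 and 50.7, 54.5, 53 and 56.2 CPM in WT libraries 1 to 4. The WT libraries spanned a narrow range, KO libraries 2 and 3 lay below it and KO library 1 lay inside it. The means were 47.8 ± 5.58 CPM across KO libraries (SD, n = 3) and 53.6 ± 2.36 CPM across WT libraries (SD, n = 4), with a KO over WT log2 fold change of -0.16 ± 0.086 (SE, 95% interval -0.36 to 0.034, adjusted p = 0.524). Leaving out KO library 1 gave -0.26 and leaving out KO library 2 gave -0.10 on the log2 scale. All Adipoq reads went to 1 of its 2 annotated transcripts (247 codons).

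Most markers of fat-filled adipocytes were near 0 in the same libraries. Of 10 such markers 8 were under 2 CPM in every library, and 5 were at 0 in at least 1 library (Plin4, Cidec, Cidea, Lep and Pck1). Plin1, which coats lipid droplets, was at 0.048 to 1.04 CPM in KO and 0.0969 to 0.751 CPM in WT, and Plin4 was at 1.74 CPM in WT library 3 and at 0 in the other 6. Cidec, another droplet protein, was at 0 to 1.67 CPM in KO and 0.0485 to 0.804 CPM in WT. Fabp4, which endothelial cells and macrophages also make, was at 119 to 223 CPM and made up most of the list's sum of 127 to 186 CPM in KO and 127 to 238 CPM in WT. Of the 10 only Cidec, Cfd and Fabp4 had enough reads to be tested, and 0 of 3 passed (0 with an unadjusted p under 0.05, and 0 with DESeq2 or voom). Apart from Plin1 and Plin4, these markers were picked for naming after their values were seen.

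**Figure D4:**
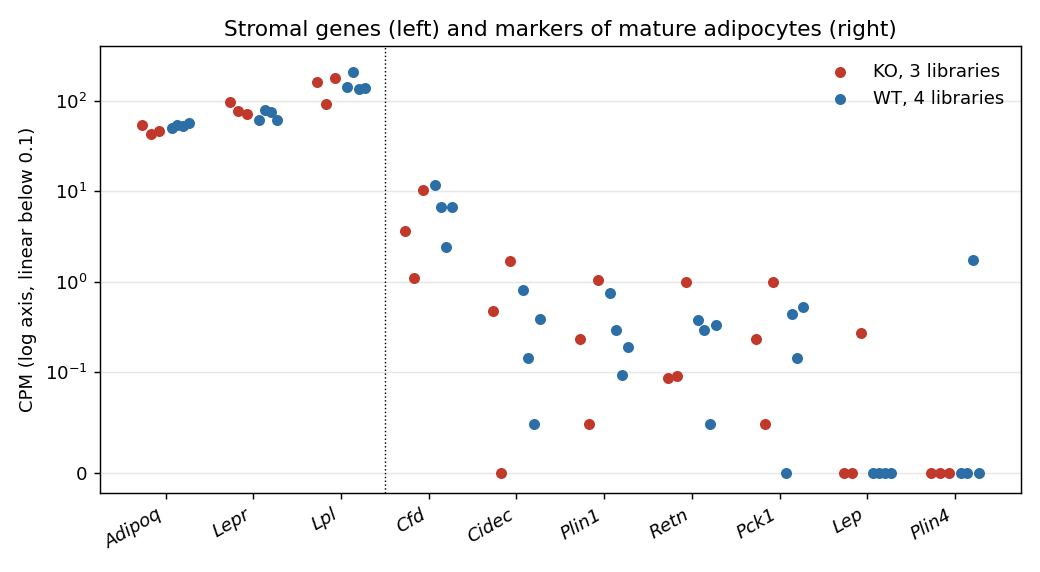
CPM (y axis, log scale, linear below 0.1) of 3 stromal genes (left of the dotted line) and 7 of the 10 listed markers of mature adipocytes (right), with 1 point per library, 3 KO in red and 4 WT in blue. Fabp4, which lay above Adipoq in every library, is among the markers not plotted. Adipoq lies between 43.4 and 56.2 CPM in each library, while Plin1, Retn and Pck1 stay at or under 1.04 CPM and Lep and Plin4 are at 0 in most libraries.

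Lpl, the lipase that frees fatty acids from circulating fat (ENSMUSG00000015568.16; chromosome 8, 68880491 to 68907448, plus strand), was at 163, 92.2 and 177 CPM in KO libraries 1 to 3 and 141, 207, 136 and 139 CPM in WT libraries 1 to 4. Its values were widely spread, with KO library 2 lowest and WT library 2 highest of all 7. The means were 144 ± 45.5 CPM across KO libraries (SD, n = 3) and 156 ± 34.4 CPM across WT libraries (SD, n = 4), with a KO over WT log2 fold change of -0.11 ± 0.24 (SE, 95% interval -0.66 to 0.44, adjusted p = 0.911). The direction was not stable: it was 0.13 without KO library 2 and 0.059 without WT library 2. Skeletal muscle also makes Lpl, and muscle markers differed widely between libraries, at a sum of 58, 770.4 and 5995 CPM in KO libraries 1 to 3 and 1181 to 2229 CPM in WT. Acta1 ranged from 9.72 to 1742 CPM and Ckm from 5.96 to 833 CPM, and 0 of the 10 muscle markers passed (DESeq2 and voom called 0 as well, and 0 had an unadjusted p under 0.05). KO library 1, with the lowest muscle sum, held 163 CPM of Lpl, and KO library 3, with the highest, held 177 CPM. The part of muscle RNA in the Lpl values was not tested.

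Of the transcription factors that keep the cells in their state, Foxc1 was the least abundant of the 10 genes. Foxc1 (ENSMUSG00000050295.4; chromosome 13, 31806633 to 31812476, plus strand) was at 14, 7.98 and 9.23 CPM in KO libraries 1 to 3 and 11.8, 10.3, 6.15 and 11.6 CPM in WT libraries 1 to 4, from 127 to 299 reads per library. WT library 3 was lowest and KO library 1 highest, and the groups overlapped. The means were 10.4 ± 3.2 CPM across KO libraries (SD, n = 3) and 9.96 ± 2.63 CPM across WT libraries (SD, n = 4), with a KO over WT log2 fold change of 0.064 ± 0.26 (SE, 95% interval -0.54 to 0.67, adjusted p = 0.96), and the sign turned without KO library 1 (-0.21) or WT library 3 (-0.11).

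Ebf3, an early B cell factor that in marrow marks the stroma rather than B cells (ENSMUSG00000010476.14; chromosome 7, 137193673 to 137314445, minus strand), was at 21.1, 23 and 20.9 CPM in KO libraries 1 to 3 and 18.4, 20.8, 19.1 and 13.7 CPM in WT libraries 1 to 4. The lowest KO library lay just above the highest WT library, and WT library 4 was the lowest of all. The means were 21.6 ± 1.14 CPM across KO libraries (SD, n = 3) and 18 ± 3.06 CPM across WT libraries (SD, n = 4), with a KO over WT log2 fold change of 0.26 ± 0.14 (SE, 95% interval -0.051 to 0.58, adjusted p = 0.52). Without WT library 4 the log2 fold change was 0.15. Its relative Ebf1, which both B cell precursors and these stromal cells use, pointed the other way, at 10.7, 8.6 and 12.6 CPM in KO libraries 1 to 3 and 18.1, 13.5, 15.3 and 21.5 CPM in WT libraries 1 to 4. The Ebf1 libraries of the groups did not overlap (log2 fold change -0.69 at an adjusted p of 0.200), and DESeq2 put Ebf1 past the threshold (adjusted p = 0.0286). Of 8 B lineage markers 0 passed with edgeR (6 lower at an unadjusted p under 0.05, 5 with DESeq2 and 5 with voom), and their sum was 144 to 237 CPM in KO and 319.6 to 512 CPM in WT, with Cd79a at 43.8 to 69.7 CPM in KO and 96 to 147 CPM in WT. The part of B lineage RNA in the Ebf1 values was not tested.

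The secreted modulators were Igfbp5, the most abundant of the 10 per length after Cxcl12, and Grem1, the one with the largest difference. Igfbp5 binds insulin-like growth factors (ENSMUSG00000026185.8; chromosome 1, 72857932 to 72874884, minus strand) and was at 413, 368 and 390.1 CPM in KO libraries 1 to 3 and 331, 485, 461 and 354 CPM in WT libraries 1 to 4. The KO libraries lay inside the WT range, which WT libraries 1 and 2 bounded. The means were 390.4 ± 22.3 CPM across KO libraries (SD, n = 3) and 408 ± 76.3 CPM across WT libraries (SD, n = 4), with a KO over WT log2 fold change of -0.063 ± 0.14 (SE, 95% interval -0.39 to 0.27, adjusted p = 0.916), and the sign turned without WT library 2 (0.031) or WT library 3 (0.00129). Cells of the osteoblast line also make Igfbp5, and their markers summed to 2447 to 2747 CPM in KO and 2697 to 5316 CPM in WT, with Bglap at 49.3 to 69.2 CPM in KO and 65.9 to 209 CPM in WT and Bglap2 at 22.7 to 35.8 CPM in KO and 29.9 to 95.1 CPM in WT. Of these 10 markers 0 passed with edgeR, 5 were lower and 1 higher at an unadjusted p under 0.05, 3 were lower with DESeq2 (Col1a1, Col1a2 and Bglap) and 0 with voom. WT libraries 2 and 3 were highest in both Igfbp5 and the osteoblast sum. WT library 1, lowest in Igfbp5, had a higher osteoblast sum (3946 CPM) than WT library 4 and the KO libraries, whose sums lay between 2447 and 2747 CPM. The part of osteoblast RNA in the Igfbp5 values was not tested.

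Grem1, a secreted antagonist of bone morphogenetic proteins (ENSMUSG00000074934.3; chromosome 2, 113746164 to 113758646, minus strand), was at 18.5, 12.2 and 11.7 CPM in KO libraries 1 to 3 and 20.8, 18.1, 17.2 and 24.4 CPM in WT libraries 1 to 4. KO libraries 2 and 3 lay below all WT libraries, while KO library 1 lay inside the WT range. The means were 14.1 ± 3.81 CPM across KO libraries (SD, n = 3) and 20.1 ± 3.26 CPM across WT libraries (SD, n = 4), with a KO over WT log2 fold change of -0.51 ± 0.19 (SE, 95% interval -0.95 to -0.075, adjusted p = 0.361) and an unadjusted p of 0.0269. The log2 fold change was below 0 in each fit with a library left out (-0.75 to -0.40), and the adjusted p was above the threshold in each (0.131 to 0.695). The ligands it binds, Bmp2 and Bmp4, were at 5.08 ± 0.455 CPM across KO libraries (SD, n = 3) and 6.36 ± 1.05 CPM across WT libraries (SD, n = 4) for Bmp2 and 5.46 ± 1.35 CPM across KO libraries (SD, n = 3) and 5.43 ± 1.28 CPM across WT libraries (SD, n = 4) for Bmp4, and neither passed (log2 fold changes -0.32 at an adjusted p of 0.489 and 0.0087 at an adjusted p of 0.993).

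Seen by library, the 10 genes did not move as a block with genotype. Relative to the WT mean of log2(CPM + 0.5), the median of the 10 was 0.14, -0.032 and 0.061 in KO libraries 1 to 3 and -0.14, 0.15, 0.11 and -0.064 in WT libraries 1 to 4. KO library 1 and WT library 2 each had 9 of 10 genes above the WT mean, and WT library 1 had 3. WT libraries 1 and 4 were each the lowest library for 3 genes, WT library 1 for Cxcl12, Kitl and Igfbp5 and WT library 4 for Lepr, Ebf3 and Pdgfrb. WT library 1 was also the one with the highest haemoglobin share, and the part of that share in its low values was not tested.

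**Figure D5:**
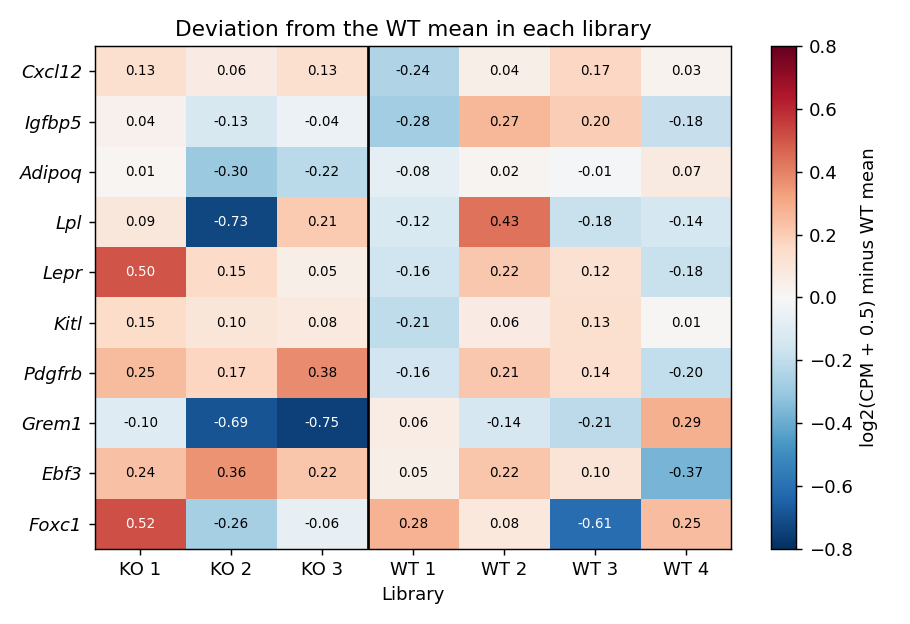
Difference of log2(CPM + 0.5) from the WT mean (colour and printed value) for the 10 genes (rows, ordered by TPM) in each library (columns, KO left and WT right of the black line). Cxcl12 and Kitl stay within 0.25 of the WT mean everywhere, while Grem1 is at -0.69 and -0.75 in KO libraries 2 and 3 and Lpl at -0.73 in KO library 2.

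The balance among the genes was compared by ratios of their CPM within each library. Of the 45 pairs among the 10 genes, 7 had ratios of CPM that did not overlap between KO and WT (15.6%), where 13.5% of all pairs of tested genes did not overlap. The 7 pairs held Adipoq, Pdgfrb or Grem1 3 times each. Adipoq per Lepr was 0.555 to 0.648 in KO and 0.681 to 0.928 in WT, and Pdgfrb per Grem1 was 2.05 to 3.55 in KO and 1.13 to 2.04 in WT. In exact two-sided permutation tests over samples, adjusted over the 45 pairs, the smallest adjusted p was 0.343. The smallest p such a test can give is 0.0286 before adjustment. Over 45 pairs the threshold could be passed only with many pairs at that limit, so these tests could hardly show a single shifted ratio. With fewer libraries more of all pairs separate. Without KO library 1, 15 of the 45 stromal pairs did not overlap (33.3%, with 23.0% of all pairs). Without WT library 3, 12 did not (26.7%, with 17.7% of all pairs). The stromal share was below that of all pairs without KO library 2 (15.6 against 19.3%) and without KO library 3 (22.2 against 27.8%). Without WT library 1, 2 or 4 it was above that of all pairs by smaller margins. The stromal pairs thus did not separate more often than all pairs in every setting. The share of the 10 genes' summed TPM held by Adipoq was 5.58 to 6.57% in KO and 6.37 to 7.74% in WT.

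Other genes known from the same stromal cells did not pass either. Of 34 such genes, all tested, 0 rose, 0 fell and 34 did not pass with edgeR, with a median log2 fold change of 0.071. At an unadjusted p under 0.05 there were 5 higher and 1 lower, where 11.5% of all tested genes were under it. DESeq2 called 1 (Ebf1) and voom 0, where 2.85% and 2.14% of all tested genes were called. The smallest p after that of Ebf1 were those of Hp, haptoglobin, at 599 ± 76.9 CPM across KO libraries (SD, n = 3) and 444 ± 69.1 CPM across WT libraries (SD, n = 4) (log2 fold change 0.43 at an adjusted p of 0.299), of Cp, the ferroxidase ceruloplasmin (log2 fold change 0.26 at an adjusted p of 0.367), and of the integrin subunit Itgav (log2 fold change 0.25 at an adjusted p of 0.368). Hp is also made by neutrophils, whose 8 markers summed to 22863 to 24953 CPM in KO and 17731 to 22954 CPM in WT, with Ngp at 6199 to 6874 CPM in KO and 4342 to 6120.5 CPM in WT and Camp at 1505 to 1789 CPM in KO and 1532 to 1809 CPM in WT, and their part in Hp was not tested. Among the genes of the list that act on blood cells, Csf1, Il7, Angpt1 and Vcam1 had log2 fold changes of 0.18, -0.060, 0.053 and -0.041. Vcam1 is also among the monocyte and macrophage markers summed below. Pparg and Cebpa, regulators of fat cell formation, had 0.21 and -0.13. These 6 were picked after their values were seen.

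Genes that act together with the 10, as their receptors, ligands or processing factors, did not pass with edgeR either. Of 28 such genes 25 were tested, and 0 rose, 0 fell and 25 did not pass, with a median log2 fold change of 0.038. At an unadjusted p under 0.05 there were 4 higher and 3 lower, where 11.5% of all tested genes were under it. The smallest p was that of Socs3, the feedback inhibitor of leptin and other STAT3 signals, which was at 16.5, 15.4 and 15.4 CPM in KO libraries 1 to 3 and 12.5, 10.5, 12 and 11.7 CPM in WT libraries 1 to 4. Each KO library lay above each WT library, with a KO over WT log2 fold change of 0.44 ± 0.088 (SE, 95% interval 0.23 to 0.64, adjusted p = 0.088), and DESeq2 and voom put it past the threshold (adjusted p = 0.0139 and 0.0302). Log2 fold changes were 0.29 at an adjusted p of 0.364 for Stat3, -0.46 at an adjusted p of 0.33 for the PDGF receptor ligand Pdgfd and -0.38 at an adjusted p of 0.361 for Dpp4, a protease that inactivates CXCL12. Lep itself was at 0 in 6 of 7 libraries. The receptors on blood cells, Cxcr4 for CXCL12 and Kit for KITL, were at 196 ± 6.9 CPM across KO libraries (SD, n = 3) and 208 ± 29.4 CPM across WT libraries (SD, n = 4) for Cxcr4 and 55.6 ± 6.51 CPM across KO libraries (SD, n = 3) and 52.8 ± 3.73 CPM across WT libraries (SD, n = 4) for Kit, with log2 fold changes of -0.092 at an adjusted p of 0.82 and 0.073 at an adjusted p of 0.83. Cxcr4, Bmp2 and Bmp4 were picked after their values were seen.

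Markers of the remaining cell types of marrow are given by their summed levels. Endothelial markers, of cells that also make Cxcl12 and Kitl, summed to 297 to 308 CPM in KO and 233 to 260.3 CPM in WT, with Cdh5 at 33.6 to 36.3 CPM in KO and 20.7 to 30.6 CPM in WT and Pecam1 at 72.5 to 82.4 CPM in KO and 64.7 to 68 CPM in WT. The groups did not overlap in the endothelial sum. Of the 8, 0 passed with edgeR, 5 were higher at an unadjusted p under 0.05, DESeq2 called 2 (Flt4 and Stab2) and voom 2 (Stab2 and Kdr). The endothelial part in Cxcl12 and Kitl was not tested. Connective tissue fibroblast markers summed to 232 to 306 CPM in KO and 224 to 238 CPM in WT. Dpt was at 0.0469 to 1.27 CPM and Pi16 at 58.8 to 80.6 CPM. Cd34 of this list is also among the stem and progenitor markers, so the sum is not that of fibroblasts alone. Monocyte and macrophage markers summed to 1477 to 1674 CPM in KO and 965 to 1573 CPM in WT, with Csf1r at 148 to 191 CPM in KO and 92 to 143 CPM in WT and Adgre1 at 52.7 to 70.5 CPM in KO and 27.2 to 75.9 CPM in WT. Stem and progenitor markers summed to 196 to 239 CPM in KO and 191 to 232 CPM in WT, with Kit at 47.9 to 62.5 CPM and Mecom at 0.679 to 1.5 CPM. Erythroid markers summed to 70398 to 93467 CPM in KO and 89088 to 145542 CPM in WT, with Hba-a1 at 25444 to 55492 CPM and Hbb-bs at 40285 to 81019 CPM. With edgeR 0 members of the neutrophil, fibroblast, monocyte, stem cell and erythroid lists passed (1, 3, 2, 0 and 1 at an unadjusted p under 0.05). DESeq2 called 1 of the fibroblast list (Ly6a) and 0 of the others, and voom 0 of all 5. Beside each list above, the shares of all tested genes were 11.5% at an unadjusted p under 0.05, 2.85% with DESeq2 and 2.14% with voom.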

How the data were processed

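Messenger RNA of whole bone marrow was sequenced from strand-specific libraries (DNBSEQ), per the labels' protocols. Salmon 1.7.0, FastQC 0.11.9, DESeq2 and build GRCm38.p6 are named in the submitters' processing notes. Neither the annotation release nor Salmon's options are given in the sources used here. The authors deposited, for each of 116546 transcripts, an estimated count (often fractional) and a TPM value scaled for effective length. Transcripts were joined to GENCODE M21 genes by identifier, 192 of them without the version, and 569 without a gene (at most 0.0662% of reads) were left out.

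Estimated counts were summed per gene, rounded, filtered with filterByExpr, scaled with TMM factors (0.918 to 1.06) and tested with edgeR 4.0.16 (R 4.3.3). The SE was taken as the size of the log2 fold change over the root of F. Intervals use the total degrees of freedom of the test, residual plus prior (8.23 in the main fit). Counts with other tools are from DESeq2 1.42.0 and limma 3.58.1 (voom with sample weights). Shares of transcript forms and ratios were tested over samples by exact permutation. Tested on simulated counts for the 14238 genes of this comparison, the steps called 27% of 63 genes changed 1.5-fold and 82.6% of 69 changed 2-fold, at 10 CPM or more, and 8.99% of 89 calls were unchanged genes. The 95% interval held the true value for 93.4% of changed genes. Libraries of a group differed by more than sampling noise, as chi-square over its degrees of freedom was 9.14 to 55.7. Read counts without molecular identifiers are not counts of molecules.

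The genes and lists were chosen with earlier results of these data known. Named were the 10 genes, Aim2, the 4 genes with the smallest p of the 2 lists of related genes and the first 2 of each marker list, and others are said to be chosen later. One marker gene is not reported here. Alternatives tried were other tools and filters, RLE scaling, library totals without the haemoglobin, immunoglobulin and mitochondrial genes, a length offset, log2(TPM + 0.1) and log2(TPM + 1) with limma, the sample number as a block, a threshold of 0.1 and each library left out.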

Additional observations from a re-analysis of the deposited data

Results flagged for a closer look

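Within the 4 WT libraries, the only group large enough for a check of single outlying libraries, 22 sets of values were checked, and chance alone would mark about 1 in 20. WT library 2 stood apart in Lpl, at 207 CPM against 136 to 141 CPM in the other WT libraries. WT library 4 stood apart in the ratio of Adipoq to Ebf3, at 4.11 against 2.61 to 2.77, and it held the lowest Ebf3 level of the 7 libraries.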

How the results depend on the processing

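The count of 0 of 10 stromal genes past the threshold held under all 18 alternatives, with the smallest adjusted p at 0.131 (Grem1 without KO library 1). Of 170 fold changes of single genes under alternatives 160 kept their direction, and 7 of the 10 genes never turned. Log2 fold changes turned with TPM values and pseudocounts of 0.1 and 1 for Lpl (0.0283 and 0.0285) and Igfbp5 (0.0976 and 0.0956). TPM values also moved the median of all genes by 0.139 and 0.114, so relative to that shift these genes stayed below the median gene, and the median of the 10 genes moved to 0.236 with 0.1. With 1 library left out it was -0.011 to 0.12, Lpl -0.29 to 0.13, Foxc1 -0.21 to 0.22, Igfbp5 -0.15 to 0.031 and Aim2 -3.49 to -2.47. Aim2 lost its call without any library except KO library 1 (adjusted p up to 0.097), with TPM values (-1.17 and -1.08) and with the replicate block (-2.97). The 92 genes called over all genes became 405 with DESeq2, 305 with voom, 55 with the length offset, 49 and 50 with TPM, 198 at a threshold of 0.1, 21 with the replicate block and 17 (without WT library 2) to 65 (without KO library 3 or WT library 1) with a library left out. Higher and lower calls, 68 and 24, became 43 and 6, and 45 and 5, with TPM, and 20 and 1 with the block. Related stromal genes had 1 call with DESeq2, and the receptors and partners 1 each with DESeq2, voom and the threshold of 0.1 (Socs3). Shares of Cxcl12 forms per length changed sign, at 0.173 points for alpha and -0.0835 for beta. With a library left out the differences spanned -1.57 to 0.99 for alpha, -0.69 to 1.46 for beta, -0.40 to 0.11 for gamma, -0.046 to 0.27 for Kitl with the exon and -0.12 to 0.0217 for long Lepr, none past the threshold, which those smaller designs could not reach. Pairs of stromal genes without overlap numbered 7 to 15 with a library left out, where 17.7 to 27.8% of all pairs of tested genes did not overlap, and 7 with TPM ratios, both chosen after seeing the data. The causes were not tested. Whether the sample numbers, taken from the sample titles, pair the libraries is not in the labels. Same-numbered KO and WT libraries had correlations of their deviations of -0.27 to 0.11, and differently numbered ones of -0.21 to 0.25. So few pairs cannot decide it. The deposited files of 3 WT libraries carry other numbers, which leave only 2 same-numbered pairs (correlations 0.11 and 0.21), and no block was fitted on those. The block changed no call of a stromal gene, and of the marker lists it called Ly6a (1.15, adjusted p = 0.0343). Depth limits the long Lepr form, with under 10 reads per library, and the adipocyte markers.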
